A study of Mus musculus with 16 samples.

Results

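The genes described here were *Myod1*, *Myf5*, *Myf6* and *Myog*, which encode the myogenic regulatory factors (MRFs), together with *Pax7*, the transcription factor that marks muscle satellite cells, and *Mymk*, which encodes the membrane protein myomaker. They were chosen by name, with earlier results of these data known. All 6 had a row among the 24454 genes counted and were among the 15487 genes tested. Transcripts were sequenced from whole gastrocnemius, a calf muscle, of 16 mice aged 3 months. The HSALR mice are homozygous for a transgene, line LR20b, that carries the human skeletal actin gene with an expanded CTG repeat, and they serve as a model of myotonic dystrophy type I. The transgene is transcribed from a skeletal actin promoter, which is active in muscle fibres, so the repeat RNA is made there. Control mice were of the FVB/N background strain and lacked the transgene. The groups were HSALR mice given vehicle (n = 5), HSALR mice given AICAR (n = 5), control mice given vehicle (n = 3) and control mice given AICAR (n = 3). AICAR, an activator of AMP-activated protein kinase, was dosed at 500 mg/kg over a period of 7 days. The labels name a separate mouse for each library.

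MRFs are basic helix-loop-helix (bHLH) proteins that pair with E proteins and bind E-boxes, short DNA motifs found near many muscle genes. *Pax7* is kept by satellite cells, the stem cells that lie under the sheath of muscle fibres, *Myod1* and *Myf5* commit their progeny to the muscle lineage, *Myog* drives differentiation, and *Myf6* is the MRF most abundant in adult fibres. Myomaker acts in the membrane of myoblasts when they fuse. *Myod1* and *Myog* are also transcribed in the nuclei of fibres, where the electrical activity brought by the nerve holds them low. In whole muscle, a change in the number of cells that make a transcript and a change in the RNA made per cell cannot be told apart.

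The 4 MRF genes share their basic region, the stretch of the protein that contacts DNA. Coding sequence from within this region and past its end is shown, because reads from nearly identical genes could be counted on the wrong one. Each stretch is 60 bases long, was read from the GENCODE annotation of GRCm38 on the coding strand, and covers codons 110 to 129 of *Myod1*, 84 to 103 of *Myf5*, 94 to 113 of *Myf6* and 82 to 101 of *Myog*. Capitals mark the 30 bases that were identical in all 4 genes.
Myod1: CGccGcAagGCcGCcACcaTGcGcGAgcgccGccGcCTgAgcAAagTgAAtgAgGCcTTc
Myf5: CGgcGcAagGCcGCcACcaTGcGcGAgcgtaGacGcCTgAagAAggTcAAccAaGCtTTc
Myf6: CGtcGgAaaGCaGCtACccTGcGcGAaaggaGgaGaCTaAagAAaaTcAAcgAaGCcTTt
Myog: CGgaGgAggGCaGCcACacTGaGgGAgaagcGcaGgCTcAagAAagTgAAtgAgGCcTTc
Over these 60 bases, *Myod1* and *Myf5* were identical at 80.0% of positions and *Myf5* and *Myog* at 63.3%, the highest and the lowest value among the 6 pairs. Over whole transcripts, the longest run shared without a mismatch was 26 bases (*Myod1* and *Myf5*), and no other pair shared more than 21. The genes lie apart in the genome except for one pair. On GRCm38, *Myod1* lies at chr7:46376474-46379092, *Myog* at chr1:134290004-134292548, *Pax7* at chr4:139737059-139833530 and *Mymk* at chr2:27061636-27072161. *Myf5* (chr10:107482908-107486927) and *Myf6* (chr10:107492848-107494723) are neighbours on the minus strand, separated by 5920 bases. No member overlapped another annotated gene, and each MRF gene has 3 exons.

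The promoter of *Myog*, taken as the 250 bases before and the 50 bases after the start of the gene in RefSeq (GRCm38.p6), is shown because *Myog* is itself a known target of MRF proteins. It spans chr1:134289754-134290053 on the plus strand, and capitals mark matches to the E-box pattern CANNTG, which reads the same pattern on both strands.
Myog promoter: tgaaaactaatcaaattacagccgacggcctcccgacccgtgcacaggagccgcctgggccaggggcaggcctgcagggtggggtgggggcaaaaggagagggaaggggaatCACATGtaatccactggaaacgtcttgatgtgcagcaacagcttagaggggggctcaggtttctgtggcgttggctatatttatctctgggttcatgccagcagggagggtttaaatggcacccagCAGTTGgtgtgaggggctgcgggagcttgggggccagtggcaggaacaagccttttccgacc
The matches were CACATG at position -138 and CAGTTG at position -12 from the start. CANNTG was present in 72.3% of 32851 promoters of this length, and CAGTTG or its reverse complement CAACTG in 13.7%.

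Between 64890014 and 81987726 reads were counted on genes in each library. Levels are expressed in normalized CPM, which are counts per unit of library size after TMM scaling, the unit being the same in all libraries, or as normalized CPM per kb of gene length where genes are compared with each other. All 16 libraries had *Xist* at 94.4 normalized CPM or more, and the sum of 4 Y-linked genes did not exceed 0.0148. Libraries differed in epidermal transcripts, since 6 libraries had *Krt14*, a keratin of the basal epidermis, above 1 normalized CPM. Of these, 4 belonged to the vehicle-treated HSALR mice (S452, S453, S458 and S459), 1 to the vehicle-treated controls (S450) and 1 to the AICAR-treated controls (S448). None of the AICAR-treated HSALR mice was among them. S451 was the vehicle-treated HSALR mouse with little *Krt14* (0.0835 normalized CPM).

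Per kb of gene length, *Myf6* was the most abundant of the 6 genes in all 4 groups. In vehicle-treated HSALR mice its mean level was 100 ± 16.4 normalized CPM per kb (SD, n = 5), against 23.9 ± 8.87 for *Myod1*, 16.3 ± 2.85 for *Myog*, 2.04 ± 0.413 for *Mymk*, 0.669 ± 0.113 for *Myf5* and 0.468 ± 0.0596 for *Pax7*. In vehicle-treated controls it was 53.7 ± 6.71 for *Myf6*, 9.12 ± 3.18 for *Myod1* and 9.48 ± 2.22 for *Myog* (SD, n = 3), while the other 3 genes stayed below 1. *Myf5*, *Pax7* and *Mymk* therefore rest on few reads: the lowest count in a library was 46 for *Myf5*, 24 for *Pax7* and 27 for *Mymk*, against 227 for *Myod1*, 426 for *Myog* and 3640 for *Myf6*.

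**Figure D1:**
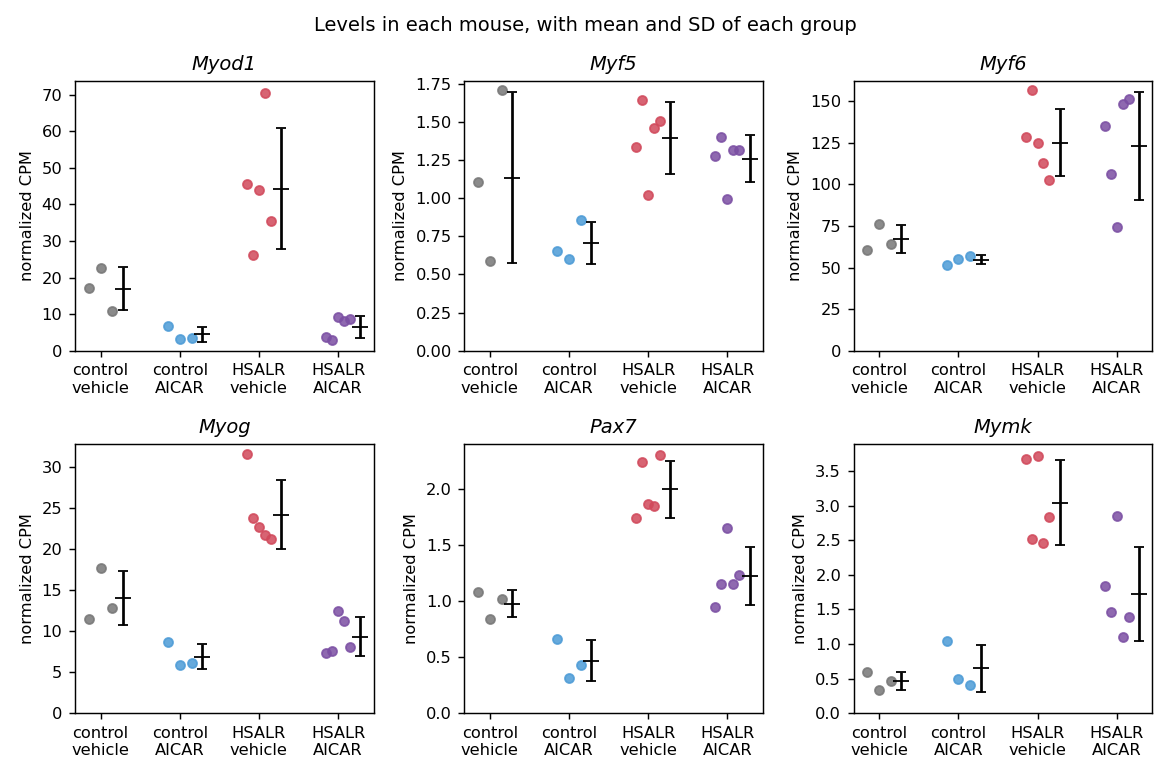
Normalized CPM (vertical axes, from 0) of the 6 genes in each mouse, by group. Points are mice and black bars the mean ± SD of each group (n = 3 for control groups, n = 5 for HSALR groups). All 5 vehicle-treated HSALR mice lie above the vehicle-treated controls for each gene but *Myf5*, and AICAR-treated mice of both genotypes lie below the vehicle-treated mice of their genotype for *Myod1*, *Myog* and *Pax7*.

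To ask how the transgene was associated with these transcripts, vehicle-treated HSALR mice were first compared with vehicle-treated controls. Transcript levels of 5 of the 6 genes were higher in HSALR muscle, from 1.72-fold for *Myog* to 6.50-fold for *Mymk*, and *Myf5* did not pass the test. Among all genes tested, 15.4% were higher and 26.9% differed in either direction. Of the genes that differed, 57.2% were higher, and 95.4% with scaling to *Tbp*, the reference gene of the study's qPCR, which moved the median log2 fold change of all genes from 0.01 to 0.28. For the same 5 genes every HSALR mouse was above every control, which held, in this direction, for 16.8% of all genes. Values below are listed in the order of the mouse numbers, which are S445, S446 and S450 for these controls and S451, S452, S453, S458 and S459 for these HSALR mice.

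*Mymk* reached 0.598, 0.344 and 0.462 normalized CPM in the controls and 3.67, 2.51, 3.72, 2.46 and 2.84 in the HSALR mice. The lowest HSALR mouse was thus well above the highest control, and the log2 fold change was 2.70 (SE 0.36, adjusted p = 6.75e-05). *Pax7* was at 1.08, 0.842 and 1.02 normalized CPM in the controls and at 1.74, 2.24, 1.87, 1.85 and 2.31 in the HSALR mice (log2 fold change 1.03, SE 0.22, adjusted p = 0.00287). The groups were again apart, although the levels correspond to only 66 to 173 reads per library.

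*Myf6* was at 60.4, 76.4 and 64.2 normalized CPM in the controls and at 128, 157, 125, 113 and 103 in the HSALR mice, with a log2 fold change of 0.90 (SE 0.19, adjusted p = 0.00293). *Myod1* had 17.1, 22.7 and 10.9 in the controls and 45.6, 26.2, 43.9, 70.3 and 35.5 in the HSALR mice (log2 fold change 1.39, SE 0.41, adjusted p = 0.0195). It varied most among the HSALR mice, where S458 had more than any other mouse and S452 lay close to the highest control. *Myog* had 11.5, 17.7 and 12.9 in the controls and 31.5, 23.8, 22.7, 21.7 and 21.2 in the HSALR mice (log2 fold change 0.78, SE 0.21, adjusted p = 0.0109). *Myf5* had 1.11, 0.587 and 1.71 normalized CPM in the controls and 1.34, 1.64, 1.02, 1.46 and 1.51 in the HSALR mice. These groups overlapped, and the 95% confidence interval of the log2 fold change, -0.26 to 0.85, leaves room for a change in either direction (adjusted p = 0.439).

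The calls for *Myod1* and *Myog* depended on single controls. For *Myod1* the adjusted p was 0.0641 without S445 and 0.0876 without S450, and for *Myog* 0.0662 without S445. Without the 6 libraries with *Krt14* above 1, which leaves S451 as the only vehicle-treated HSALR mouse, the log2 fold changes of the 5 genes lay between 0.85 and 2.96 and only *Mymk* passed (adjusted p = 0.0183). S451 itself, with its low *Krt14*, was above all 3 controls for these 5 genes.

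After AICAR, HSALR mice were again compared with control mice. *Myf5*, *Myf6*, *Pax7* and *Mymk* were higher in HSALR muscle, while *Myod1* and *Myog* did not pass the test. Of all genes, 12.2% were higher and 21.8% differed in either direction, and the groups of the same 4 genes did not overlap, which held in this direction for 15% of all genes. The mice are S447, S448 and S449 for the controls and S454, S455, S460, S462 and S463 for the HSALR mice.

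*Pax7* was at 0.668, 0.314 and 0.430 normalized CPM in AICAR-treated controls and at 0.946, 1.15, 1.65, 1.16 and 1.24 in AICAR-treated HSALR mice (log2 fold change 1.38, SE 0.23, adjusted p = 0.000734). *Mymk* was at 1.04, 0.497 and 0.415 in the controls and at 1.84, 1.46, 2.85, 1.11 and 1.39 in the HSALR mice (log2 fold change 1.41, SE 0.34, adjusted p = 0.0086). The highest control, S447, came close to the lowest HSALR mouse, S462. *Myf6* was at 51.8, 55.2 and 57.1 in the controls and at 135, 106, 74.3, 148 and 151 in the HSALR mice (log2 fold change 1.17, SE 0.20, adjusted p = 0.000685). HSALR mouse S460 was the lowest of its group for *Myf6* and the highest for *Pax7* and *Mymk*.

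*Myf5* was at 0.654, 0.602 and 0.859 normalized CPM in AICAR-treated controls and at 1.28, 1.40, 0.996, 1.31 and 1.32 in AICAR-treated HSALR mice (log2 fold change 0.84, SE 0.27, adjusted p = 0.0383). This call was the least stable of the 4: it was lost without any one of S447, S448, S454, S455, S462 or S463, with an adjusted p of up to 0.133, and with scaling to *Tbp* (0.0669), by limma voom (0.0514) and without the 6 *Krt14* libraries (0.0877). *Myod1* was at 6.75, 3.25 and 3.37 in the controls and at 3.83, 2.81, 9.10, 8.14 and 8.60 in the HSALR mice, and the groups overlapped (log2 fold change 0.54, 95% confidence interval -0.35 to 1.43, adjusted p = 0.378). *Myog* was at 8.72, 5.93 and 6.10 in the controls and at 7.36, 7.60, 12.5, 11.2 and 8.09 in the HSALR mice, again overlapping (log2 fold change 0.44, 95% confidence interval -0.01 to 0.88, adjusted p = 0.149).

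AICAR was then compared with vehicle within each genotype. In HSALR mice *Myod1*, *Myog*, *Pax7* and *Mymk* fell, *Myod1* to 0.146 and *Myog* to 0.387 of the vehicle level, while *Myf5* and *Myf6* did not pass the test. Among all genes, 13% were lower and 26.6% differed in either direction. These comparisons share the vehicle-treated mice with those of HSALR against control, so their directions are not independent of them.

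In HSALR mice the mean level of *Myod1* was 44.3 ± 16.4 normalized CPM after vehicle and 6.49 ± 2.94 after AICAR (SD, n = 5 each), with a log2 fold change of -2.77 (SE 0.36, adjusted p = 8.01e-05). The highest AICAR-treated mouse (9.10) was below the lowest vehicle-treated one (26.2). *Myog* went from 24.2 ± 4.22 to 9.35 ± 2.35 (log2 fold change -1.37, SE 0.18, adjusted p = 8.01e-05), also without overlap. *Pax7* went from 2.00 ± 0.255 to 1.23 ± 0.259 (log2 fold change -0.70, SE 0.18, adjusted p = 0.0108), and S460 (1.65) came close to the lowest vehicle-treated mouse (1.74). Groups without overlap, in this direction, were seen for 7.48% of all genes. *Mymk* went from 3.04 ± 0.616 to 1.73 ± 0.677 (log2 fold change -0.82, SE 0.27, adjusted p = 0.0355), and its groups overlapped because S460 had 2.85. The call for *Mymk* was lost in 7 of 10 fits that left out a single mouse (S451, S453, S454, S455, S459, S462 or S463), with an adjusted p of up to 0.086.

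*Myf6* was 125 ± 20.4 normalized CPM after vehicle and 123 ± 32.5 after AICAR in HSALR mice. The 95% confidence interval of its log2 fold change was -0.37 to 0.32 (adjusted p = 0.929), so changes of the size seen for *Myod1* and *Myog* lay outside it. For *Myf5* the levels were 1.39 ± 0.235 and 1.26 ± 0.154, with an interval of -0.62 to 0.33 (adjusted p = 0.672). All 9 epidermal markers listed were lower after AICAR in HSALR mice, and their summed level was 3.74 to 298 normalized CPM in vehicle-treated and 2.47 to 3.10 in AICAR-treated mice. The count of 9 was 4 without S454, 5 without S453 or S462, 3 with only the groups compared and 0 by limma voom. S451, the vehicle-treated mouse at 3.74, was above all 5 AICAR-treated HSALR mice for *Myod1*, *Myog*, *Pax7* and *Mymk*. Without the 6 libraries with *Krt14* above 1, *Myod1* and *Myog* remained past the threshold (adjusted p of at most 0.0133), whereas *Pax7* (log2 fold change -0.51, adjusted p = 0.37) and *Mymk* (-1.09, adjusted p = 0.203) did not pass. With a score of the epidermal markers as a covariate (the epidermal score) *Mymk* did not pass either (-1.06, adjusted p = 0.068).

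In control mice AICAR lowered *Myod1*, *Myog* and *Pax7*. Only 4.77% of all genes were lower in this comparison and 13.2% differed in either direction. *Myod1* was at 16.9 ± 5.89 normalized CPM after vehicle and 4.46 ± 1.99 after AICAR (SD, n = 3 each), a log2 fold change of -1.93 (SE 0.46, adjusted p = 0.0128). *Myog* went from 14.0 ± 3.29 to 6.92 ± 1.56 (log2 fold change -1.02, SE 0.23, adjusted p = 0.00931), and *Pax7* from 0.981 ± 0.124 to 0.471 ± 0.181 (log2 fold change -1.06, SE 0.25, adjusted p = 0.0126). The groups did not overlap for these 3 genes nor for *Myf6*, and the share of all genes with such a pattern in this direction was 15%. *Myf6* did not pass the test (67.0 ± 8.37 against 54.7 ± 2.71, adjusted p = 0.387). *Mymk* was 0.468 ± 0.127 and 0.650 ± 0.338 (adjusted p = 0.456), and *Myf5* was 1.14 ± 0.563 and 0.705 ± 0.136 (adjusted p = 0.142).

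With 3 mice a group, single mice mattered. Without S448 the adjusted p was 0.054 for *Myod1* and 0.056 for *Pax7*, without S449 it was 0.0625 and 0.0548, and for *Myf5* it was 0.02 without S446. For *Pax7* it was 0.0728 with only the groups compared. Scaling to *Tbp* left *Myod1* alone past the threshold, with an adjusted p of 0.0606 for *Myog* and 0.07 for *Pax7*. Without the 6 libraries with *Krt14* above 1 none of the 3 passed, with log2 fold changes of -1.99 for *Myod1*, -0.99 for *Myog* and -0.81 for *Pax7*.

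**Figure D2:**
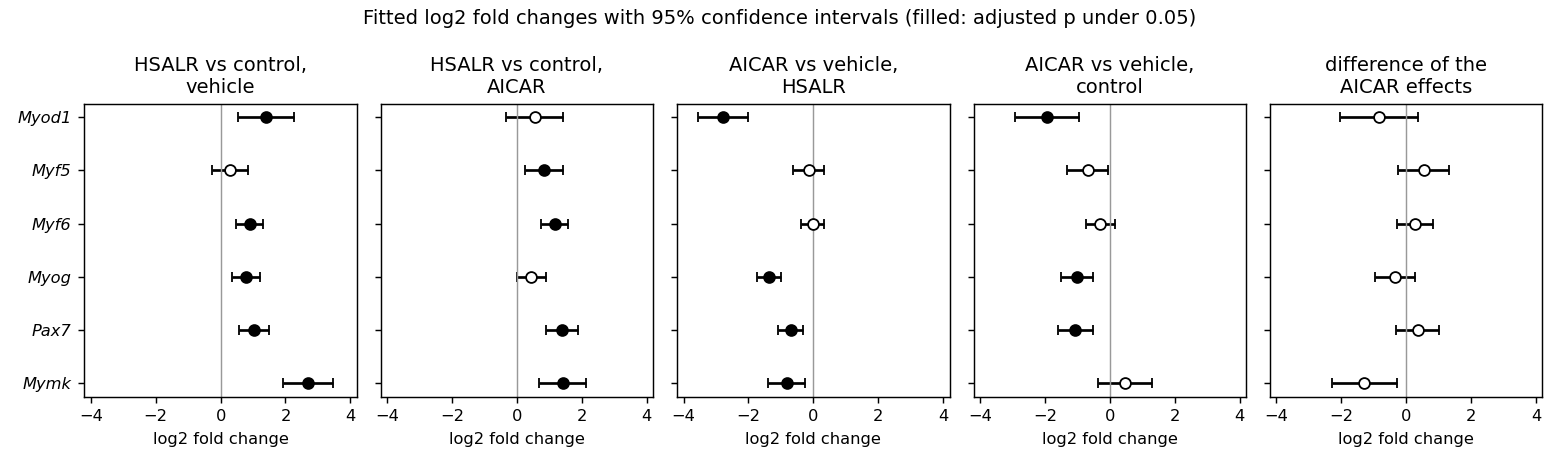
Log2 fold changes (horizontal axes) of the 6 genes from edgeR's fit over all 16 libraries, with 95% confidence intervals. Filled points have an adjusted p under 0.05. In the last panel, the AICAR effect in HSALR mice minus that in control mice, the 6 points are all open.

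Whether AICAR acted differently in the 2 genotypes was tested as the difference of its effects. None of the 6 genes passed after adjustment, against 0.691% of all genes, and by DESeq2 and limma voom the count was also 0. *Mymk* alone had an unadjusted p below the threshold in edgeR's quasi-likelihood test (0.0151). Its log2 difference was -1.29 (95% confidence interval -2.29 to -0.29, adjusted p = 0.218). For *Myod1* the difference was -0.85 (95% confidence interval -2.05 to 0.36) and for *Myog* -0.35 (-0.96 to 0.27), so effects that differ by a log2 unit between the genotypes were within these intervals for *Myod1*.

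The order of the 4 groups differed between the genes. For *Myod1* and *Myog* the means rose from AICAR-treated control over AICAR-treated HSALR and vehicle-treated control to vehicle-treated HSALR mice. For *Myod1* only the first pair of neighbours in this order overlapped, and for *Myog* only the last pair did not. For *Myf6*, *Pax7* and *Myf5* the order was AICAR-treated control, vehicle-treated control, AICAR-treated HSALR and vehicle-treated HSALR. The middle pair overlapped for *Pax7*, all pairs overlapped for *Myf5*, and the first pair alone was apart for *Myf6*. For *Mymk* both control groups, which overlapped, were below both HSALR groups, which also overlapped.

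The make-up of the MRF transcripts was described by the share of each gene in the sum of the 4 MRF genes per kb, which does not depend on how libraries are scaled. The sum was 141 ± 15.2 normalized CPM per kb in vehicle-treated HSALR mice, 109 ± 25.6 after AICAR, 72.8 ± 11.2 in vehicle-treated controls and 51.2 ± 0.921 after AICAR. *Myf6* held 70.9% ± 6.22 of it in vehicle-treated HSALR mice (SD, n = 5), *Myod1* 17.1% ± 6.16, *Myog* 11.6% ± 1.71 and *Myf5* 0.479% ± 0.0993. In vehicle-treated controls the shares were 73.9% ± 2.80 for *Myf6*, 12.4% ± 3.08 for *Myod1* and 12.9% ± 1.11 for *Myog* (SD, n = 3), and each overlapped with HSALR mice.

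After AICAR the share of *Myf6* was 89.8% ± 4.95 in HSALR mice and that of *Myod1* 3.39% ± 2.04, with no overlap with vehicle-treated mice for either gene. The two-sided exact permutation test gave p = 0.00794 for both, the smallest value that 5 mice against 5 allow. Adjusted over the 16 tests of shares the value was 0.0635, so the difference did not pass, and no share passed in any comparison. Before adjustment 3 of the 16 were below 0.05, the third being *Myog* in the same comparison (p = 0.0317, exact permutation test). In control mice AICAR went with a share of 85.5% ± 4.09 for *Myf6* and 4.69% ± 2.09 for *Myod1*, where 3 mice against 3 cannot give a p below 0.1.

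**Figure D3:**
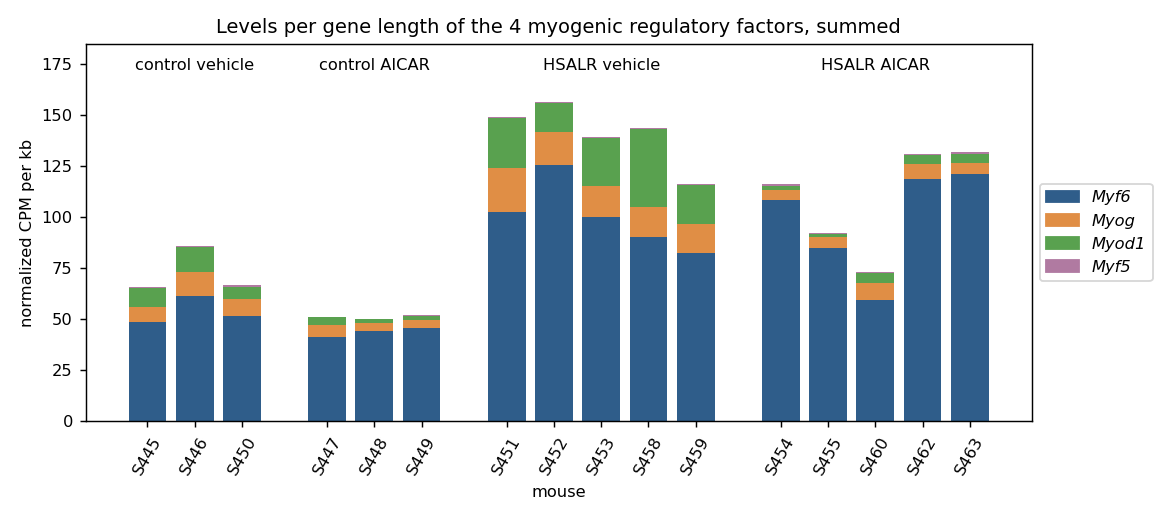
Normalized CPM per kb of the 4 MRF genes in each mouse, stacked from 0, with mice grouped by genotype and treatment. *Myf6* makes up most of each bar, the bars of vehicle-treated HSALR mice are the tallest as a group, and the *Myod1* and *Myog* parts are thinner in AICAR-treated mice.

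Across the 16 libraries, *Myod1* and *Myog* followed each other most closely of the 15 pairs, with a Pearson correlation of log2 levels of 0.941. Libraries of 1 group share their condition, and after the group means were taken out the correlation was 0.593. For *Pax7* and *Mymk* the values were 0.796 and 0.561. *Myf6* and *Mymk* had 0.668 over all libraries but -0.597 within groups. These are descriptions over 16 libraries of 4 groups, without a test.

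**Figure D4:**
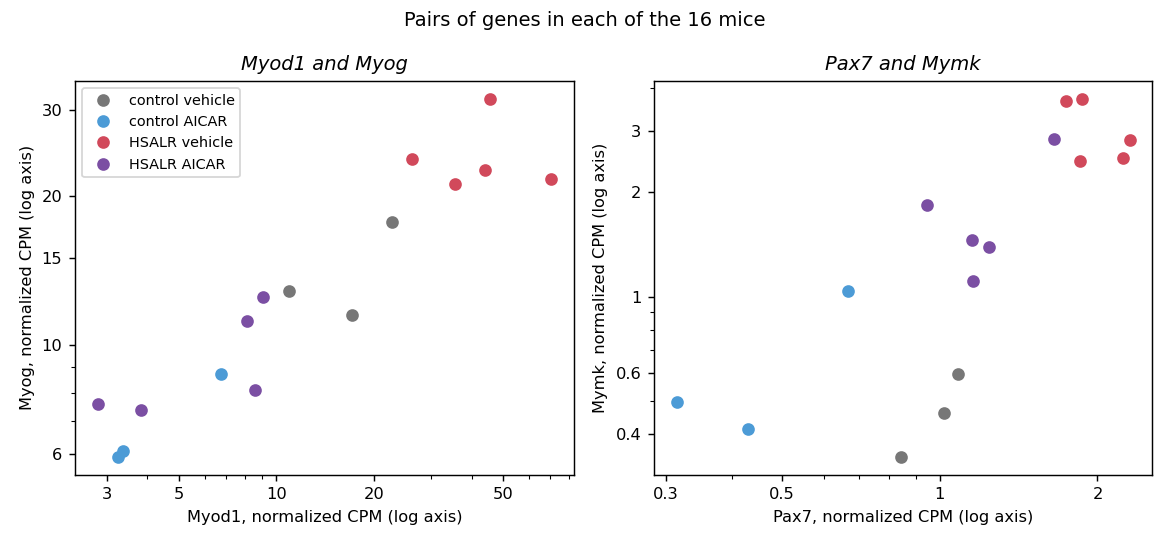
Normalized CPM of *Myog* against *Myod1* (left) and of *Mymk* against *Pax7* (right), both axes on log scales, with 1 point per mouse. The 5 vehicle-treated HSALR mice lie at the upper right of both panels, and AICAR-treated mice of both genotypes lie at the lower left for *Myod1* and *Myog*.

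Among 12975 genes with a mean count of at least 50, *Myog* had *Myod1* as its nearest gene, followed by *Smad1* (0.937), a mediator of BMP signals, and *Fggy* (0.934). *Myod1* was followed most closely by *Prr12* (0.962), *Rgma* (0.957), a BMP co-receptor, and *Lurap1* (0.956). For *Mymk* the nearest genes were *Gdf5* (0.973), a BMP ligand, *Cpne2* (0.971) and *Cilp* (0.968), and for *Pax7* they were *Dapk2* (0.959), *Tekt1* (0.950) and *A330074K22Rik* (0.941). *Myf6* went with *Kctd5* (0.972), *Jun* (0.951), an early-response transcription factor, and *Tmem266* (0.929), and *Myf5* with *Abca4* (0.906), *Pars2* (0.896) and *St3gal5* (0.880).

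Other genes that mark satellite cells moved in both directions. Of 21 tested genes of this list, which includes *Pax7* and *Myf5*, 3 were higher and 2 lower in vehicle-treated HSALR mice, with a median log2 fold change of 0.21 against 0.01 for all genes, of which 15.4% were higher and 11.5% lower. The count of 5 was 3 without S453, with the epidermal score, with only the groups compared or without the 6 *Krt14* libraries, and 8 with scaling to *Tbp*. *Fgfr4*, a fibroblast growth factor receptor of myogenic cells, was at 0.754, 0.765 and 1.43 normalized CPM in vehicle-treated controls and between 1.78 and 2.99 in vehicle-treated HSALR mice (log2 fold change 1.27, adjusted p = 0.0012). *Calcr*, the calcitonin receptor of quiescent satellite cells, had a log2 fold change of 0.95 that did not pass (adjusted p = 0.0994). *Notch3* (log2 fold change -0.38, adjusted p = 0.000451) and *Heyl* (-0.30, adjusted p = 0.0359) were lower, and both are also made by vessel wall cells. All 6 endothelial markers and 3 of 6 smooth muscle markers were lower in the same comparison, with a summed endothelial level of 282 to 318 normalized CPM in controls and 192 to 241 in HSALR mice. With scaling to *Tbp* 1 marker of each list passed, without the 6 *Krt14* libraries no endothelial and 1 smooth muscle marker, and without S445 1 smooth muscle marker. Their part in the *Notch3* and *Heyl* values was not tested. The *Heyl* call was lost without any one of S445, S446, S453, S458 or S459 (adjusted p of up to 0.238), and scaling to *Tbp* gave adjusted p values of up to 0.907 for *Heyl* and 0.474 for *Notch3*.

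After AICAR, 4 of the 21 satellite cell genes rose and 3 fell in each genotype. The count of 7 was 4 in controls without S445, without S449 or with only the groups compared. It was also smaller in HSALR mice without the 6 *Krt14* libraries. Among all genes, 13.7% rose and 13% fell in HSALR mice, and 8.4% rose and 4.77% fell in controls. *Dlk1*, a membrane protein related to Notch ligands, was at 0.982, 1.43 and 0.747 normalized CPM in vehicle-treated and 4.08, 5.82 and 11.2 in AICAR-treated controls (log2 fold change 2.74, adjusted p = 0.00114). In HSALR mice it was between 0.292 and 0.987 after vehicle and between 6.26 and 12.7 after AICAR (3.88, adjusted p = 3.8e-06). *Cxcr4*, a chemokine receptor, also rose in both genotypes (0.96 in HSALR, adjusted p = 0.00322, and 1.32 in controls, adjusted p = 0.00489). Without the 6 *Krt14* libraries the value in HSALR mice was 0.42 (adjusted p = 0.39), and it did not pass with the epidermal score either. *Spry1*, an inhibitor of growth factor signalling linked to satellite cell quiescence, fell in both (-0.73, adjusted p = 3.21e-05, and -0.70, adjusted p = 0.000993). *Pax7* was thus lower after AICAR beside genes of the same list that were higher. In AICAR-treated mice, *Met*, the receptor of hepatocyte growth factor, was lower in HSALR than in control muscle (-0.73, adjusted p = 0.000474). Another 3 list genes were higher, *Fgfr4* (1.28, adjusted p = 0.00201) among them, while 12.2% of all genes were higher and 9.64% lower.

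Among partners and inhibitors of the MRF proteins, 2 of 16 were higher and 1 lower in vehicle-treated HSALR mice, where 26.9% of all genes passed. The count of 3 was 1 without S445 and 0 without the 6 *Krt14* libraries (by the same edgeR test). *Mdfi*, whose product holds MRF proteins in the cytoplasm, was at 0.185, 0.319 and 0.190 normalized CPM in the controls and between 0.415 and 0.585 in HSALR mice (log2 fold change 1.00, adjusted p = 0.0076). *Id2*, which binds E proteins and keeps them from MRF proteins, had a log2 fold change of 0.75 (adjusted p = 0.0106, but 0.0558 without S445). AICAR lowered *Id2* in HSALR mice (-0.87, adjusted p = 0.00156). Of the 16 genes, 1 rose and 3 fell with AICAR in HSALR mice, and 1 rose in controls, against 26.6% and 13.2% of all genes in either direction. The count of 4 was 2 without S453, S454, S455, S458, S462 or the 6 *Krt14* libraries, and with the epidermal score. *Id3*, a relative of *Id2*, was among those that fell (-0.52, adjusted p = 0.0449), but its call was lost in 7 of 10 fits that left out a mouse (S451, S453, S454, S455, S458, S462 or S463), with an adjusted p of up to 0.114. *Bhlhe41*, a bHLH repressor also known from the circadian clock, rose with AICAR in HSALR (1.20, adjusted p = 0.00265) and in control mice (2.12, adjusted p = 0.000963). After AICAR it was lower in HSALR than in control mice (-0.98, adjusted p = 0.0201, but 0.0876 without S449), while *Mdfi* was higher (1.32, adjusted p = 0.00201). Of the E protein genes, *Tcf4* was lower in vehicle-treated HSALR mice (-0.28, adjusted p = 0.0189), a call that was lost without S445 (0.0597) or S450 (0.0719).

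The list of upstream regulators of MRF genes had 20 members tested, of which 3 were higher and 2 lower in vehicle-treated HSALR mice. This is close to the 26.9% of all genes. The 5 calls fell to 3 without S446, without S453 or with no filter on low counts. They fell to 2 without S445, without S451 or with only the groups compared. *Hdac4*, a histone deacetylase that links muscle activity to *Myog* through repression of *Dach2*, was at 58.5, 49.7 and 54.8 normalized CPM in vehicle-treated controls and at 73.4, 85.3, 85.4, 47.3 and 60.5 in vehicle-treated HSALR mice. These overlapped (log2 fold change 0.37, adjusted p = 0.131). After AICAR it was between 106 and 135 in HSALR mice, above vehicle (0.73, adjusted p = 0.00249) and above the AICAR-treated controls at 56.2, 69.9 and 90.1 (0.70, adjusted p = 0.0115, but 0.0688 without S447). *Dach2*, a repressor of *Myog*, had a log2 fold change of -0.91 in vehicle-treated HSALR mice with an adjusted p of 0.0495, and it was lost in 6 of 8 fits that left out a mouse (S445, S450, S451, S453, S458 or S459), with an adjusted p of up to 0.242. *Hdac9* (-0.44, adjusted p = 0.493) and *Ctbp1* (-0.03, adjusted p = 0.664) did not pass. *Ybx3*, a Y-box protein described as a repressor of muscle genes, rose with AICAR in HSALR (0.56, adjusted p = 0.000102) and in control mice (0.47, adjusted p = 0.00573).

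Of the same list, 9 genes rose and 3 fell with AICAR in HSALR mice, and 2 rose and 2 fell in controls. Among all genes the shares were 13.7% and 13% in HSALR mice and 8.4% and 4.77% in controls. The 12 calls in HSALR mice fell to 6 with scaling to *Tbp* and to 2 without the 6 *Krt14* libraries, and the 4 in controls to 2 without S446. The transcriptional co-activators *Eya4* (0.96, adjusted p = 0.00133) and *Eya1* (0.88, adjusted p = 0.00148) rose in HSALR mice. *Camk2d*, a kinase of activity-dependent signalling, was higher in vehicle-treated HSALR than control mice (1.12, adjusted p = 1.13e-05) and fell with AICAR in HSALR mice (-0.47, adjusted p = 0.00355). *Pitx3*, a homeobox factor of muscle, was higher in HSALR mice after AICAR (0.99, adjusted p = 0.000671), when 6 genes of the list were higher and none lower (3 calls without S447), against 12.2% and 9.64% of all genes. After vehicle its log2 fold change was 0.51 (adjusted p = 0.0305), lost without S445, S446, S451 or S458 (up to 0.152).

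The remaining calls at the ends of this list were small, and each was lost when a single mouse was left out. *Camk2g* had a log2 fold change of -0.20 in vehicle-treated HSALR mice (adjusted p = 0.0409), which was lost without S445, S446, S451, S453 or S458 (up to 0.205) and turned to 0.076 with scaling to *Tbp*. In controls given AICAR, *Camk2b* had 0.27 (adjusted p = 0.0417, up to 0.187 without S445, S446, S447, S449 or S450) and *Six4*, a homeobox factor, had -0.56 (adjusted p = 0.016, but 0.0552 without S446 and 0.0686 without S448). Between the genotypes *Camk2b* lay further apart, at 186 to 205 normalized CPM in vehicle-treated controls and 258 to 289 in vehicle-treated HSALR mice. After AICAR it was at 208 to 273 in controls and 320 to 351 in HSALR mice.

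Fusion genes also moved in both directions. In vehicle-treated HSALR mice 4 of 15 tested genes were higher and 2 lower (15.4% and 11.5% of all genes), a count of 6 that was 3 without the 6 *Krt14* libraries, and the median log2 fold change was -0.14 against 0.01 for all genes. *Mymx*, which encodes myomixer, the partner of myomaker in fusion, was close to 0 in vehicle-treated controls, with 9 reads over the 3 libraries against 716 over the 5 HSALR libraries. The ratio of summed levels was 47.8, with a 95% interval of 25.0 to 105 for counting error alone (exact binomial). Every HSALR mouse (1.28 to 3.20 normalized CPM) was above every control (0.0128 to 0.0679, adjusted p = 0.00032). With AICAR, *Mymx* fell in HSALR mice to between 0.378 and 0.668 normalized CPM (log2 fold change -1.94, adjusted p = 0.0145). In AICAR-treated controls it was at 0.583, 0.0262 and 0.0143, so that S447 stood at the level of AICAR-treated HSALR mice, and S447 was also the highest of that group for *Mymk*, *Myod1*, *Myog* and *Pax7*. The other fusion genes moved by smaller amounts, such as *Jam3* (-0.58, adjusted p = 0.0132, but 0.0617 without S450), *Dock1* (-0.36, adjusted p = 0.00515) and *Cav3* (0.56, adjusted p = 0.000205). Neither *Jam3* nor *Dock1* passed with scaling to *Tbp* or without the 6 *Krt14* libraries (adjusted p of up to 0.426 for *Jam3* and 0.629 for *Dock1*).

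After AICAR, 2 fusion genes were higher and 2 lower in HSALR than in control mice, against 12.2% and 9.64% of all genes. Beside *Mymk* these were *Cav3* (0.33, adjusted p = 0.0114, but 0.0527 without S449), *Ehd2* (-0.49, adjusted p = 0.00374) and *Dock1* (-0.36, adjusted p = 0.00635). AICAR went with 2 higher and 4 lower genes in HSALR mice (13.7% and 13% of all genes), and the count of 6 was 3 without S454 and 1 with the epidermal score or without the 6 *Krt14* libraries. *Cdh15*, the M-cadherin of satellite cells and myoblasts, rose there (0.33, adjusted p = 0.00936), as did *Jam2* (0.21, adjusted p = 0.0257, up to 0.0701 without S452, S454, S458, S459 or S463). In controls, where 13.2% of all genes passed, *Cdh15* was the only fusion gene past the threshold (0.40, adjusted p = 0.0223), and its call was lost without S445, S446, S449 or S450 (up to 0.114).

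Muscle genes known as targets of MRF proteins were higher or not past the threshold in HSALR mice. Like the other lists, this one was chosen with earlier results of these data known, so its counts beside all genes are descriptions. Of 20 genes, 11 were higher and none lower in vehicle-treated HSALR mice, against 15.4% and 11.5% of all genes, with a median log2 fold change of 0.60, and 6 passed without the 6 *Krt14* libraries. *Runx1*, a transcription factor raised in denervated muscle, was at 3.51, 4.45 and 4.99 normalized CPM in the controls and at 29.3, 31.7, 28.3, 17.1 and 19.1 in HSALR mice (log2 fold change 2.54, adjusted p = 1.92e-05). *Cdkn1a*, an inhibitor of the cell cycle, was at 28.9, 26.3 and 42.3 in the controls and between 83.1 and 111 in HSALR mice (1.60, adjusted p = 0.0027). Genes of the synapse were among the others, namely *Musk* (1.43, adjusted p = 0.000854), *Chrna1* (1.24, adjusted p = 6.6e-05) and *Chrne* (0.63, adjusted p = 0.00852). *Chrng*, another subunit of the acetylcholine receptor, had 0.65 and did not pass (adjusted p = 0.289). In AICAR-treated mice 6 of the 20 were higher in HSALR muscle and none was lower, against 12.2% and 9.64% of all genes, and 11 passed by DESeq2. The 2 largest differences among them were those of *Chrna1* (1.42, adjusted p = 3.88e-05) and *Ncam1* (0.95, adjusted p = 0.00179), an adhesion molecule raised in denervated fibres.

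AICAR lowered 6 of the 20 target genes in HSALR mice and raised 1, the muscle filament gene *Des*, while 13% of all genes were lower. These 7 calls fell to 2 with the epidermal score as a covariate or without the 6 *Krt14* libraries, and to 4 without S453 or S454. *Chrng*, the embryonic subunit of the acetylcholine receptor, was between 0.771 and 1.33 normalized CPM after vehicle and between 0.233 and 0.498 after AICAR (log2 fold change -1.42, adjusted p = 0.0115). *Cdkn1a* fell as well (-1.16, adjusted p = 0.00658), but S460, at 86.2 normalized CPM, lay within the range of the vehicle-treated mice (83.1 to 111). In controls AICAR raised 3 target genes and lowered 2, against 8.4% and 4.77% of all genes. The count of 5 was 3 without S445 or S450, 2 without S449 and 1 with only the groups compared. These 5 genes included *Musk* (1.02, adjusted p = 0.0247, up to 0.142 without S445, S446, S449 or S450) and *Chrne* (-0.65, adjusted p = 0.0245, up to 0.127 without S445, S448 or S449). *Des* in HSALR mice (0.23, adjusted p = 0.0204) was lost without S453 (0.0541) or S454 (0.058).

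*Runx1* was between 15.0 and 33.0 normalized CPM in AICAR-treated HSALR mice and did not pass against vehicle (-0.17, adjusted p = 0.62). In controls *Runx1* rose with AICAR to 10.1, 14.6 and 16.7 normalized CPM (1.68, adjusted p = 0.00257), and the AICAR effects of the 2 genotypes differed by a log2 value of -1.85 (adjusted p = 0.0355). This difference passed in 4 of 16 fits that left out a mouse, those without S447, S458, S459 or S460, and the adjusted p reached 0.116 without S445.

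Of 10 genes of regeneration and proliferation, none passed in HSALR against control mice after vehicle, by edgeR, DESeq2 or limma voom, and none had an unadjusted p under 0.05. With scaling to *Tbp* 1 of them passed. Embryonic myosin *Myh3* was at 5.32, 5.00 and 17.6 normalized CPM in controls and between 6.39 and 9.99 in HSALR mice (adjusted p = 0.693), and neonatal myosin *Myh8* overlapped as well (adjusted p = 0.77). After AICAR none passed either, with 2 genes at an unadjusted p under 0.05, but 1 passed without S448 and 1 with only the groups compared. AICAR against vehicle gave 1 higher gene in HSALR mice, the proliferation marker *Mki67* (0.95, adjusted p = 0.00886). In controls 5 rose and *Myh3* fell, against 8.4% and 4.77% of all genes, the largest increase being that of *Cdk1* (1.56, adjusted p = 0.0207), a kinase of mitosis, but *Cdk1* was lost without S445, S448 or S450 (adjusted p of up to 0.104) and *Myh3* without S448, S449 or S450 (up to 0.308). *Ccna2*, a cyclin, was also higher (1.25, adjusted p = 0.0448), lost in 5 of 6 such fits (all but S447, up to 0.145). The count of 6 in controls was 0 without S448, without S450 or without the 6 *Krt14* libraries (by the same edgeR test), 1 without S445, 3 without S449 and 2 with only the groups compared.

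**Figure D5:**
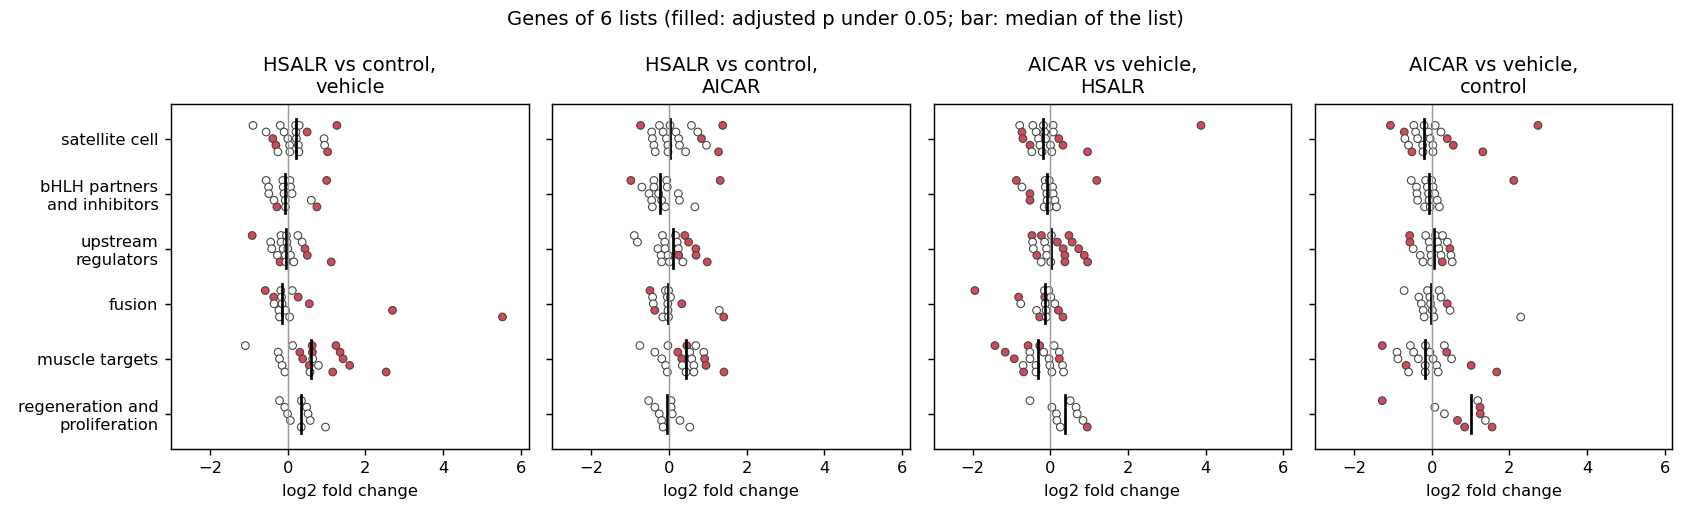
Log2 fold changes (horizontal axes) of the tested genes of 6 lists in the 4 comparisons of groups. Each point is a gene, filled where the adjusted p was under 0.05, and black bars mark the median of each list. The targets of MRF proteins have most of their filled points to the right of 0 in HSALR against control mice, and *Mymx* is the point farthest to the right in the vehicle panel.

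Several calls of list genes did not pass without the 6 *Krt14* libraries. In vehicle-treated HSALR against control mice these were *Heyl*, *Mdfi*, *Id2*, *Tcf4*, *Pitx3*, *Dach2*, *Camk2g*, *Jam3*, *Dock1* and *Cdkn1a*. For AICAR in HSALR mice they were *Cxcr4*, *Id2*, *Id3*, *Camk2d*, *Eya4*, *Eya1*, *Cdh15*, *Jam2*, *Cdkn1a*, *Des*, *Chrng* and *Mki67*, and for AICAR in controls *Camk2b*, *Six4*, *Myh3*, *Chrne*, *Cdk1* and *Ccna2*. *Mymk* in HSALR against control mice after AICAR had an adjusted p of 0.0863 in that fit. With the epidermal score, *Bhlhe41*, *Cdh15*, *Cdkn1a*, *Chrng* and *Mki67* were among the genes that did not pass for AICAR in HSALR mice. With scaling to *Tbp*, *Tcf4* and *Dach2* did not pass after vehicle, *Dock1* and *Cav3* after AICAR, *Cdh15*, *Jam2* and *Des* for AICAR in HSALR mice, and *Six4*, *Myh3* and *Chrne* for AICAR in controls.

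Markers of other cells of the muscle were checked in the same comparisons. Macrophage markers were higher for 2 of 6 genes in vehicle-treated HSALR mice, against 15.4% of all genes. No fibroblast, adipocyte or Schwann cell marker passed in that comparison. The 2 macrophage calls were lost without S445, and the count was 1 without S450. In HSALR against control mice after AICAR, 2 endothelial, 2 smooth muscle and 1 Schwann cell marker were lower, against 9.64% of all genes. Without S447 no smooth muscle marker passed and without S448 1 did. The Schwann cell call was lost without S447, S448, S454, S460, S462 or S463, by limma voom, with the epidermal score and without the 6 *Krt14* libraries, whereas 5 markers passed without S449. So were 5 of 9 epidermal markers, whose sum was 2.39 to 165 normalized CPM in AICAR-treated controls and 2.47 to 3.10 in AICAR-treated HSALR mice, but none of them without S448, the control with the most, nor without any 1 of the HSALR mice. Of 10 muscle fibre markers, 3 were higher and none lower in HSALR mice after vehicle, against 15.4% and 11.5% of all genes. After AICAR 3 were higher and 1 lower, against 12.2% and 9.64% of all genes. With AICAR in HSALR mice 2 of 6 endothelial markers rose, 2 of 6 fibroblast and 1 of 6 smooth muscle markers fell, and 1 macrophage marker rose and 1 fell, against 13.7% and 13% of all genes. The smooth muscle call was lost without S451, S454, S455 or S463. The macrophage count of 2 was 1 without S451, S452, S453, S454, S458, S462 or S463 and 0 with scaling to *Tbp*, with the epidermal score or without the 6 *Krt14* libraries, and no endothelial marker passed under the latter 2. With AICAR in controls 1 endothelial and 1 smooth muscle marker fell (4.77% of all genes). Both calls were lost without S445, S448 or S449 and with only the groups compared, the endothelial one also without S446 and the smooth muscle one with scaling to *Tbp*. The part of these cells in the values of the 6 genes was not tested. Muscle fibre markers were abundant in all libraries, with a summed level of at least 138513 normalized CPM. *Pax3*, the relative of *Pax7*, had no more than 9 reads in a library and was not tested.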

How the data were processed

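RNA of gastrocnemius was sequenced from 16 mice, in stranded libraries of which the authors deposited counts per gene: whole numbers of single-end reads starting in any exon of the RefSeq annotation, without normalization. Reads had been mapped to mm10 with STAR (2.5.2a in the submitters' processing notes), keeping 1 location for reads with several equal hits, and counted with QuasR. Whether strand was used is not given in the sources used here. Gene symbols were matched to 24374 of 24454 identifiers.

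Libraries were scaled by TMM (factors 0.906 to 1.06). Genes kept by filterByExpr over the 4 groups (15487) were tested in R 4.3.3 with edgeR 4.0.16 (glmQLFit, glmQLFTest), with 1 mean per group over all 16 libraries, and p-values were adjusted over all genes by Benjamini-Hochberg (threshold 0.05). The test was checked on simulated counts. P-values of this test set differences between group means against the spread between mice within groups. Log2 fold changes, SEs and 95% confidence intervals are those of the fit, and medians of all genes lay within 0.03 of 0. Shares were compared by two-sided exact permutation tests.

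The 6 genes and the lists were chosen with earlier results of these data known. From each list and comparison of 2 groups, up to 2 genes with the highest and 2 with the lowest log2 fold change past the threshold were named, besides *Hdac4*, *Hdac9*, *Dach2*, *Ybx3* and *Ctbp1*. *Calcr*, *Myh8* and *Pax3*, and values of named genes in further comparisons, were added after they were seen. One gene that the rule names is not reported here. Alternatives were DESeq2 1.42.0, limma 3.58.1 with voom, other scalings, filters, robust dispersion, fits of only the groups compared, an epidermal marker score as covariate, and leaving out each mouse. Counts of exons and junctions were not used here.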

Additional observations from a re-analysis of the deposited data

Results flagged for a closer look

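Of 20 values in groups of 5 mice that were examined for a sample far from the others, 3 stood apart, where chance gives about 1. *Myog* in the vehicle-treated HSALR mouse S451 was 31.5 normalized CPM, while the other 4 mice lay between 21.2 and 23.8. S451 was also the mouse of its group with the least *Krt14*.

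In the AICAR-treated HSALR mouse S460, *Myf6* made up 81.1% of the MRF transcripts per kb (the others 90.4% to 93.4%) and *Myog* 11.5% (the others 4.14% to 5.76%). Both shares come from the same sum and the same mouse, in which *Myf6* was at 74.3 normalized CPM against at least 106 in the others.

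For *Runx1*, a target of MRF proteins, the effects of AICAR in the 2 genotypes differed by a log2 value of -1.85 (adjusted p = 0.0355, edgeR's quasi-likelihood test): the 3 AICAR-treated controls were all above the 3 vehicle-treated ones, while the groups overlapped in HSALR mice. The difference was past the threshold in 12 of 27 alternatives.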

How the results depend on the processing

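Over the 6 genes and 5 comparisons, 16 results passed, and 37 of their 322 values under an alternative did not. Of the 320 values of the other results 1 newly passed. The sign turned in 6, none of them past the threshold in either fit: *Myf5* in HSALR against control mice after vehicle (-0.017 without S446), *Myf6* for AICAR in HSALR mice (0.073 without S452, 0.024 without S455 and 0.11 without S460), *Mymk* for AICAR in controls (-0.030 without S447) and *Myf6* for the difference (-0.038 with scaling to *Tbp*). The number of the 6 genes past the threshold in HSALR against control mice after vehicle was 5, and 3 to 5 with a mouse left out, 3 of them without S445. For AICAR in controls it was 3, and 1 to 4 with a mouse left out, 1 of them without S448 or S449, and 1 with scaling to *Tbp*. Without the 6 libraries with *Krt14* above 1 normalized CPM, an alternative chosen after the data were seen, it was 1 in HSALR against control mice after vehicle, 2 after AICAR, 2 for AICAR in HSALR mice and 0 for AICAR in controls. That fit has 10 libraries and a lone vehicle-treated HSALR mouse, assumed to vary like the other groups. *Myod1* and *Myog* after AICAR in HSALR mice passed in all 22 alternatives, with log2 fold changes of -3.22 to -2.54 and -1.76 to -1.25.

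Of the other named genes, *Camk2g* turned its direction in vehicle-treated HSALR against control mice with scaling to *Tbp* (-0.20 in the fit reported, 0.076 with *Tbp*). The cause was not tested. Over all genes, the count was 4169 in HSALR against control mice after vehicle and 904 without the *Krt14* libraries. After AICAR it was 3379, 1396 with scaling to *Tbp* and 2214 without S447. For AICAR in HSALR mice it was 4121, 1914 with the epidermal score and 899 without the *Krt14* libraries. For AICAR in controls it was 2039, 1164 with only the groups compared, 697 without the *Krt14* libraries and 1143, 1214 and 1344 without S449, S445 and S448. For the difference of the AICAR effects it was 107, 535 by DESeq2, 381 with scaling to *Tbp*, 51 with the epidermal score, 0 without the *Krt14* libraries and 15 to 371 with a mouse left out.

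The share of higher genes among those past the threshold was 51.3% for AICAR in HSALR mice, 25.2% with scaling to *Tbp* and 30.9% with library size alone. In controls it was 63.8%, 94.3% with *Tbp*, 50.7% with library size alone and 45.1% with upper-quartile scaling. For the difference it was 29.9%, 1.57% with *Tbp* and 40.7% with upper-quartile scaling. *Tbp* moved the median of all genes to 0.19 for AICAR in controls, to -0.13 in HSALR mice and to -0.32 for the difference.

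No paired analysis was possible because mice of different groups share no number. The difference of the AICAR effects needs all 4 groups, so it has no fit of only the groups compared. Few reads limit *Pax7*, *Mymk* and *Myf5*.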
